A study of Rattus norvegicus with 12 samples.

Results

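Kat6a and 8 partner genes were followed in heart muscle cells that had received a virus carrying human KAT6A. The 9 genes are Kat6a, Kat6b, Kat7, Brpf1, Brd1, Brpf3, Ing4, Ing5 and Meaf6. Each was found by its symbol in the deposited count table, which holds 32883 rat genes, and each symbol matched 1 row. All 9 passed the filter on low counts, as did 14063 genes in all.

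The cells were primary ventricular cardiomyocytes of newborn rats, which are beating heart muscle cells kept in short-term culture. All cells received an adenovirus and were examined after 2 days. Its cargo was LacZ, a bacterial gene used as the control, or human KAT6A as the wild-type protein (WT), as K815R or as K815Q. K815R is described by the submitters as resistant to acetylation and K815Q as a mimic of it, both made at the same lysine. Each of the 4 groups had 3 libraries. The labels do not say which libraries came from separate cell preparations. The p-values set each difference against the spread between these libraries, which may be technical. They may therefore not reflect the spread between separate preparations. The cells' own Kat6a was measured directly only in LacZ. In the other groups, reads of the human cargo cannot be told from its reads. In the libraries labelled K815Q the Kat6a count was not raised, as given below, so that group is named by its label throughout.

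KAT6A and its paralog KAT6B, also called MOZ and MORF, are lysine acetyltransferases of the MYST family that acetylate the tail of histone H3. Each works in a complex in which a scaffold protein, BRPF1, BRD1 or BRPF3, joins the enzyme to the small subunits ING4 or ING5 and MEAF6. KAT7, also called HBO1, is a related enzyme that can use the same BRPF scaffolds or, instead, the JADE scaffolds. KAT6A is best known for keeping blood stem cells and for setting expression of developmental genes, among them HOX and T-box genes.

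Gene counts per library ranged from 19102048 to 25451686. The 7 cardiomyocyte markers checked, among them Tnnt2 and Myh6, were summed in CPM, the library-scaled count used for all levels here. The sum was 34578 to 35956 CPM for LacZ, 35944 to 37310 for WT, 37112 to 38263 for K815R and 35485 to 36962 for the libraries labelled K815Q. The 6 fibroblast markers summed to 7955 to 8514 CPM for WT and 8118 to 8544 for K815R, below LacZ at 8782 to 9417 and the libraries labelled K815Q at 8669 to 9320 without overlap. Col1a1, a collagen chain, made up most of that sum and was called in no comparison by edgeR (adjusted p of at least 0.0908), while Pdgfra and Postn gave 6 edgeR calls. Over the 36 results of the 6 fibroblast markers, DESeq2 gave 10 calls. In WT against LacZ it called 4 of them, where edgeR called 2, beside 670 of 13512 genes called by DESeq2. Against LacZ in WT, Pdgfra fell by 0.36 on the log2 scale and Postn was 0.35 higher (edgeR adjusted p = 0.00109 and 0.00104). In K815R the mean of Col1a1 was 7480 CPM beside 8256 in LacZ, and that of Dcn was 222 beside 249. Postn and Lum stood at 310 and 164 CPM in K815R, beside 313 and 163 in LacZ. Pdgfra stood at 69.2 CPM in K815R beside 61.2 in LacZ, and Col1a2 at 33.4 ± 35.6 beside 11.9 ± 3.26 (SD, n = 3). Smooth muscle markers summed to between 3482 and 4013 CPM. Endothelial markers summed to between 111 and 171 CPM and macrophage markers to between 34.4 and 45.6 CPM. Because these are bulk libraries, fewer cells of a type and less RNA per cell cannot be told apart. A list of 9 interferon-stimulated genes summed to between 264 and 494 CPM in LacZ. It summed to between 35.3 and 82.9 CPM in WT, between 70.1 and 113 CPM in K815R and between 30.7 and 43.2 CPM in the libraries labelled K815Q. The part of these marker and interferon genes in the results below was not tested.

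The enzymes are described first. Kat6a (ENSRNOG00000025174) stood at 45.5, 45.2 and 53.6 CPM in LacZ replicates 1, 2 and 3. The WT libraries held 90.8, 82.0 and 106 CPM. The K815R libraries held 102, 122 and 101 CPM. The libraries labelled K815Q held 43.4, 50.0 and 45.7 CPM. The 6 libraries of WT and K815R all lay above the 6 others with no overlap, while LacZ overlapped the libraries labelled K815Q and WT overlapped K815R. In order of the mean, Kat6a was lowest in the libraries labelled K815Q, then LacZ, WT and K815R, and neither the first nor the last pair of neighbours gave a called difference.

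Against LacZ, Kat6a was 1.93-fold as high in WT and 2.25-fold in K815R. These are log2 fold changes of 0.95 (SE 0.108) and 1.17 (SE 0.107), with edgeR adjusted p of 3.28e-04 and 1.95e-04. The summed fibroblast markers, mostly Col1a1, were lowest in these same groups, although not every marker was lower, as given above. The part of these markers was not tested. The mean level of Kat6a exceeded that of LacZ by 44.9 CPM in WT and by 60.1 CPM in K815R. The table has 1 row for Kat6a, in which reads of the human cargo cannot be told from reads of the rat gene. Reads were aligned to a rat genome, and how many reads of the human cargo were counted there was not tested. The excess and the folds are therefore not a measure of the delivered transcript. Kat6a was the 1 member called in WT, where 5.34% of all genes tested were called, and the 1 member called in K815R, where 2.47% were. With each of the 6 libraries left out in turn both calls were kept, at log2 fold changes of 0.84 to 1.03 in WT and 1.08 to 1.26 in K815R.

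In the libraries labelled K815Q, Kat6a differed from LacZ by a log2 fold change of -0.05, with a 95% interval from -0.30 to 0.19 (edgeR adjusted p = 0.815). No member was called in that comparison, where 7.85% of all genes tested were called by edgeR. By edgeR, 0 of the 9 had an unadjusted p under 0.05, and DESeq2 called 0 as well. The upper end of the interval lay below the lower end in WT, 0.72, and in K815R, 0.94. Kat6a fell by 1.01 on the log2 scale from WT to the libraries labelled K815Q (edgeR adjusted p = 0.00148). It was 1.22 higher in K815R than in those libraries (edgeR adjusted p = 3.53e-04). Kat6a was the 1 member called in each, beside 1.07% and 0.363% of all genes tested.

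Between K815R and WT the log2 fold change of Kat6a was 0.22, with a 95% interval from -0.01 to 0.45 (edgeR adjusted p = 0.388). No member was called in that comparison, where edgeR called 2.20% of all genes. By edgeR, 3 of the 9 had an unadjusted p under 0.05, namely Kat6b, Brpf1 and Ing5, and DESeq2 called 0. In total 4 of the 54 results over the 9 genes and 6 comparisons were called, all of them for Kat6a. Comparisons that share a group share its libraries, so these 4 calls are not independent of each other.

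**Figure D1:**
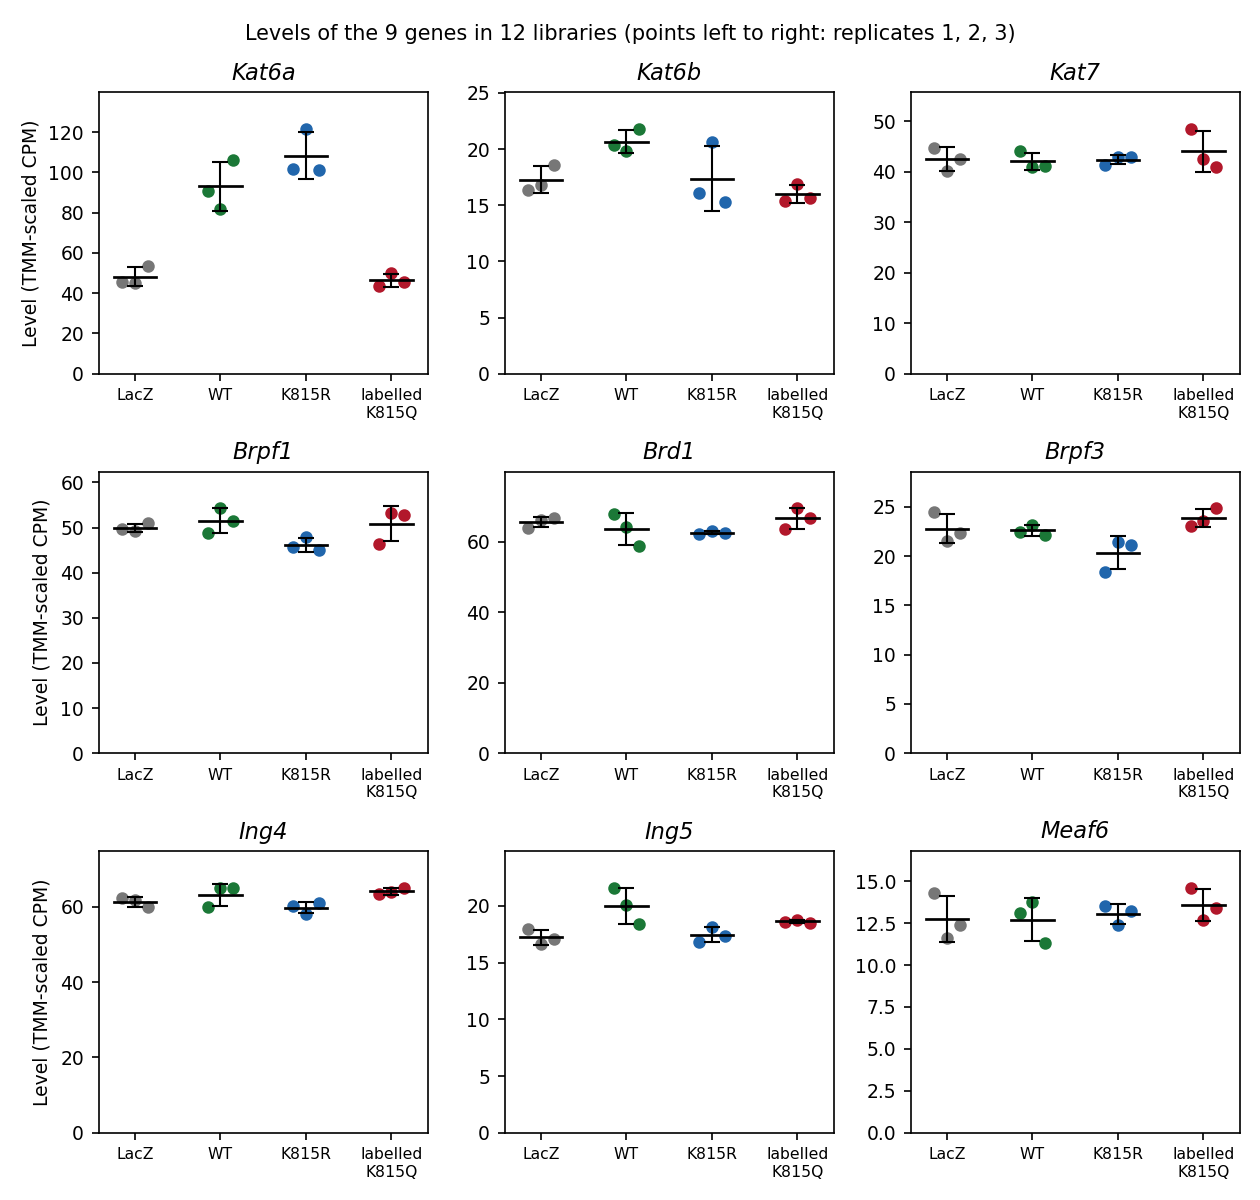
Level of each of the 9 genes in CPM (vertical axes from 0, each with its own scale) by group, with 1 point per library, a bar at the mean and error bars of 1 SD (n = 3). Kat6a in WT and K815R lies above LacZ and the libraries labelled K815Q, whereas the other 8 genes stay within narrow ranges.

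Kat6b (ENSRNOG00000012850), the paralog that builds the same complexes, stood at 16.3, 16.8 and 18.6 CPM in LacZ. The WT libraries held 20.4, 19.8 and 21.8 CPM. The K815R libraries held 16.1, 20.7 and 15.3 CPM, and the libraries labelled K815Q held 15.4, 16.9 and 15.6 CPM. All 3 WT libraries lay above all LacZ libraries and above all libraries labelled K815Q, while K815R spread across the other groups through its replicate 2, the deepest library of the study. WT was 1.20-fold as high as LacZ, a log2 fold change of 0.26 (SE 0.0936) that was not called (edgeR adjusted p = 0.115). In order of the mean, Kat6b was lowest in the libraries labelled K815Q, then LacZ, K815R and WT, and no neighbours in that order gave a called difference.

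The largest gap for Kat6b lay between WT and the libraries labelled K815Q, which were lower by a log2 fold change of -0.37 (SE 0.0963). Its 95% interval ran from -0.57 to -0.17, and it just missed the call (edgeR adjusted p = 0.0632). It was called in 3 of the 7 other settings, with adjusted p from 0.00348 without a filter to 0.0668, and in none of the 6 fits with a library left out. Kat6a and Kat6b were the 2 of 9 members without overlap between these groups, beside 19.3% of all genes tested. Between K815R and WT the log2 fold change was -0.25 (edgeR adjusted p = 0.212). Without K815R replicate 2 it was -0.40 and was called (edgeR adjusted p = 0.0236).

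Within each group, the library with the highest Kat6a also had the highest Kat6b, in 4 of 4 groups. In 3 of these groups all 3 libraries stood in the same order for both genes, with LacZ as the exception. After the group means were taken out, Pearson's r of log2 CPM between both genes was 0.85 over the 12 libraries. As a description, 1.28% of 10260 genes of at least 5 CPM had an r with Kat6a as high as this or higher. The points share their libraries and scaling. With the groups left in, r was 0.55. Kat6b had the highest r of the members with the group means taken out. Over the remaining members that r with Kat6a ran from -0.70 for Meaf6 to 0.32 for Brpf1.

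The number of Kat6a counts per Kat6b count in a library does not depend on scaling. It is not a ratio of transcript numbers, since the counts were not divided by transcript length. The ratio was 2.78, 2.69 and 2.88 in LacZ and 2.82, 2.95 and 2.92 in the libraries labelled K815Q. It was 4.46, 4.14 and 4.87 in WT and 6.34, 5.89 and 6.60 in K815R. WT and K815R did not overlap each other or the other groups on this ratio, although their Kat6a levels did overlap. The mean ratio was 6.28 ± 0.361 in K815R and 4.49 ± 0.366 in WT (SD, n = 3 each; exact two-sided permutation test, p = 0.10, the smallest that 3 against 3 libraries can give). LacZ and the libraries labelled K815Q had means of 2.78 ± 0.0968 and 2.90 ± 0.0720 (SD, n = 3 each; exact two-sided permutation test, p = 0.20).

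**Figure D2:**
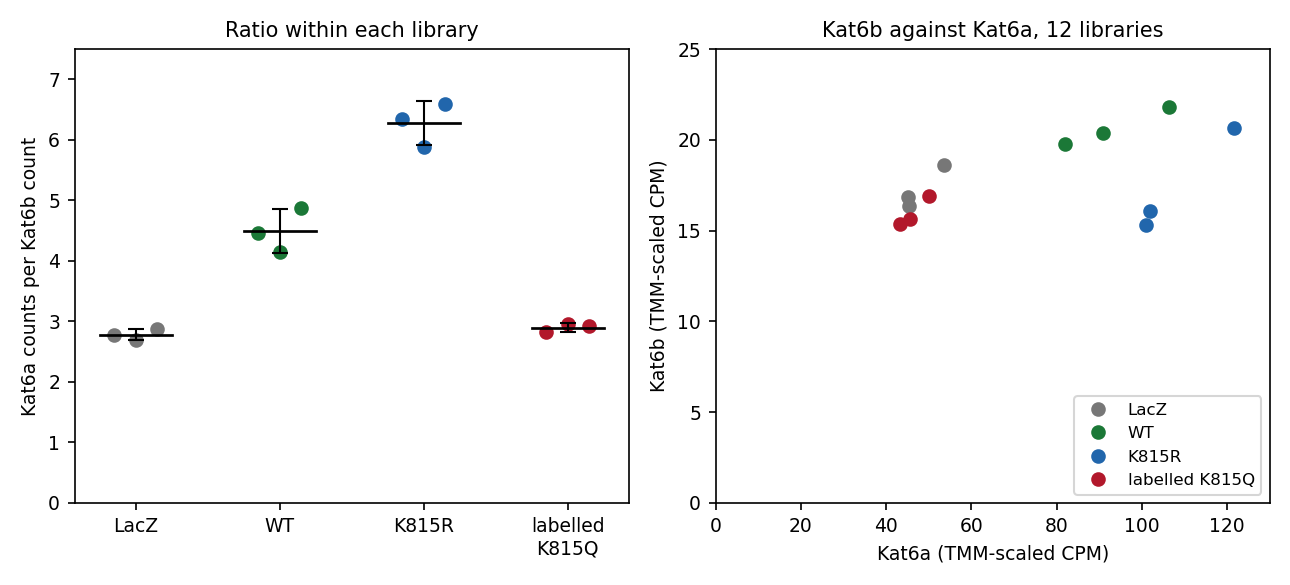
Left, Kat6a counts per Kat6b count in each library by group, with the mean and 1 SD (n = 3). Right, Kat6b against Kat6a in CPM for the 12 libraries. The 3 K815R libraries have ratios from 5.89 to 6.60, above the 3 WT libraries at 4.14 to 4.87, and both lie above the 6 others.

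Kat7 (ENSRNOG00000022664), the HBO1 enzyme, varied least between groups among the 3 acetyltransferases. Its mean CPM was 42.5 ± 2.34 for LacZ, 42.0 ± 1.72 for WT, 42.4 ± 0.953 for K815R and 44.0 ± 3.97 for the libraries labelled K815Q (SD, n = 3 each). The groups overlapped in all 6 comparisons, and the log2 fold changes against LacZ were -0.02, 0.00 and 0.05. The 95% interval for K815R against LacZ ran from -0.14 to 0.13. Counts of Kat6a per Kat7 count were 1.13 ± 0.122 in LacZ, with 2.22 ± 0.318 for WT and 2.55 ± 0.253 for K815R (SD, n = 3; exact two-sided permutation test, p = 0.10 for each, the smallest possible).

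The scaffolds come next. Brpf1 (ENSRNOG00000008142), which activates the catalytic subunit and links it to chromatin through its bromodomain and PHD fingers, stood at 49.6, 49.3 and 50.9 CPM in LacZ. It stood at 48.7, 54.3 and 51.4 CPM in WT and at 45.7, 47.9 and 44.9 CPM in K815R. The libraries labelled K815Q held 46.4, 53.3 and 52.8 CPM. The K815R libraries were below every LacZ and WT library, by log2 fold changes of -0.11 and -0.16 (edgeR adjusted p = 0.439 and 0.231), and overlapped those labelled K815Q.

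Brpf3 (ENSRNOG00000028641), a scaffold described mostly with the HBO1 enzyme, stood at 24.4, 21.5 and 22.4 CPM in LacZ and at 22.5, 23.2 and 22.1 CPM in WT. It stood at 18.4, 21.4 and 21.2 CPM in K815R and at 23.1, 23.6 and 24.9 CPM in the libraries labelled K815Q. All K815R libraries lay below all 9 others, but the gap to LacZ was small, from 21.4 to 21.5 CPM. The log2 fold change in K815R against the libraries labelled K815Q was -0.23, with a 95% interval from -0.38 to -0.07 (edgeR adjusted p = 0.206). Brd1 (ENSRNOG00000004538), also called BRPF2, ranged only from 62.1 to 63.2 CPM in K815R. It ranged from 64.0 to 66.6 CPM in LacZ, from 58.9 to 68.0 in WT and from 63.6 to 69.5 in the libraries labelled K815Q.

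For each of the 3 scaffold genes K815R had the lowest mean of the 4 groups and did not overlap LacZ. With Kat6a these made 4 of 9 members without overlap in that comparison, beside 18.7% of all genes tested. None of the 3 was called in it, at log2 fold changes of -0.16 for Brpf3, -0.11 for Brpf1 and -0.07 for Brd1. Over the 8 members other than Kat6a, the median log2 fold change of K815R against WT was -0.12, beside 0.00 for all genes tested. Of the 9 members, 6 were below 0 in that comparison, beside 51% of all genes. Brpf1, Brpf3 and Ing5 were the 3 of 9 members without overlap between K815R and WT, beside 19.0% of all genes tested. Between K815R and the libraries labelled K815Q there were 5 of 9, Kat6a, Brd1, Brpf3, Ing4 and Ing5, beside 16.0%.

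The level of Kat6a was also set against that of its scaffolds. Its counts per summed count of Brpf1, Brd1 and Brpf3 were 0.348 ± 0.0306 in LacZ and 0.328 ± 0.0126 in the libraries labelled K815Q (SD, n = 3). They were 0.678 ± 0.114 in WT and 0.837 ± 0.0711 in K815R (SD, n = 3). Each of WT and K815R differed from LacZ with p = 0.10, the smallest that an exact two-sided permutation test over these libraries can give, and K815R from WT with p = 0.20. Against LacZ, the log2 fold changes of the 3 scaffold genes in WT and K815R ran from -0.16 to 0.04.

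The small subunits were examined last. Ing5 (ENSRNOG00000018988), a PHD finger protein that binds methylated histone H3, stood at 18.0, 16.7 and 17.1 CPM in LacZ and at 21.6, 20.1 and 18.4 CPM in WT. It stood at 16.8, 18.1 and 17.4 CPM in K815R and at 18.6, 18.8 and 18.5 CPM in the libraries labelled K815Q. All WT libraries lay above all LacZ and all K815R libraries. With Kat6a and Kat6b, Ing5 made 3 of 9 members without overlap between WT and LacZ, beside 24.6% of all genes tested. The log2 fold change of WT against LacZ was 0.21 (SE 0.0736, edgeR adjusted p = 0.0953), and that of K815R against WT was -0.20 (edgeR adjusted p = 0.206). Neither was called.

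Ing4 (ENSRNOG00000023363), the other ING subunit, was among the steadiest members. Its CPM ran from 59.9 to 62.4 for LacZ, 59.9 to 65.0 for WT, 58.2 to 61.0 for K815R and 63.4 to 65.1 for the libraries labelled K815Q. The last group lay above LacZ and K815R without overlap, at log2 fold changes of 0.06 and, with K815R as the first group, -0.10 (edgeR adjusted p = 0.480 and 0.468). Ing4 and Ing5 made 2 of 9 members without overlap between the libraries labelled K815Q and LacZ, beside 28.4% of all genes tested. Meaf6 (ENSRNOG00000009309), a small subunit shared by the MOZ/MORF, HBO1 and NuA4 complexes, ranged from 11.3 to 14.6 CPM over the 12 libraries. Its groups overlapped in all 6 comparisons, with log2 fold changes from -0.06 to 0.10.

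How well a change in these genes could be seen was set by counting and by the spread of libraries. Kat6a had 834 to 3086 counts per library. For 1 library at a group's mean count, its counting error was 2.03% to 3.34%, and its libraries spread by 7.24% to 13.2% (CV). Meaf6 had 238 to 341 counts and a counting error, taken in the same way, of 5.76% to 6.27%, and its libraries spread by 4.63% to 10.9%. Over the 48 results of the 8 genes other than Kat6a, log2 fold changes ran from -0.37 to 0.26, or 0.773-fold to 1.20-fold. The ends of their 95% intervals ran from -0.57 to 0.45. None of the 48 was called by edgeR, 9 had an unadjusted p under 0.05, and the lowest adjusted p was that of Kat6b above. The share of all genes with an unadjusted p under 0.05 was not computed. Counts at that threshold, here and for the lists below, therefore do not set these genes apart from others. When all 4 groups were tested at once, Kat6a was the only one of the 9 called (edgeR adjusted p = 3.73e-05), beside 8.13% of all genes tested. Kat6b came nearest to it among the others (edgeR adjusted p = 0.0606).

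**Figure D3:**
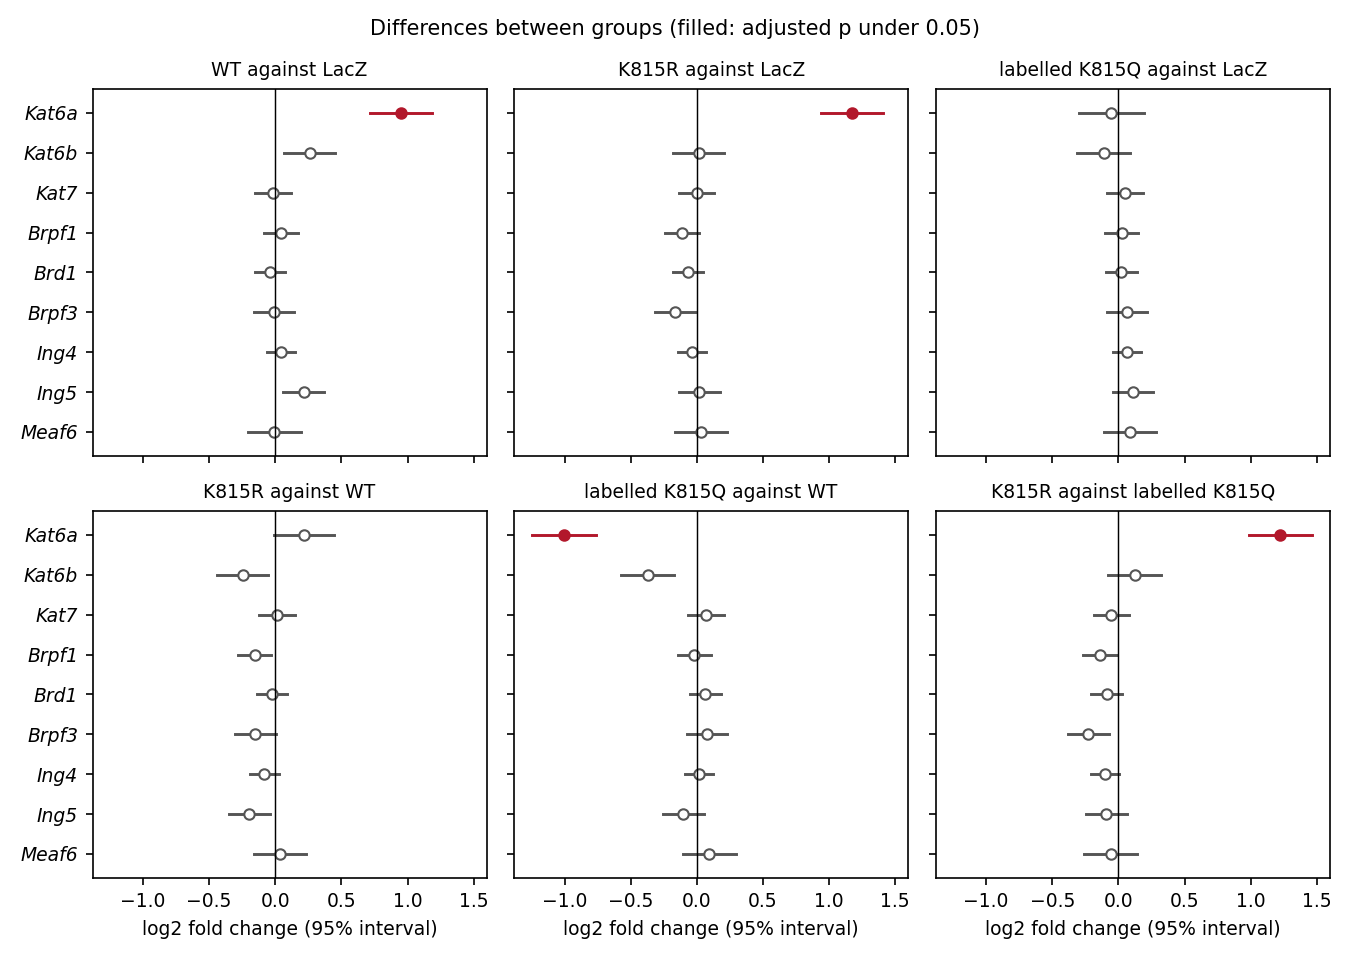
Log2 fold change of each of the 9 genes with its 95% interval (horizontal axis) in the 6 comparisons, filled where the adjusted p was under 0.05. The filled points are Kat6a in 4 comparisons, at 0.95, 1.17, -1.01 and 1.22, and the other 8 genes lie between -0.37 and 0.26.

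Other genes of the pathway were taken as lists and described by their counts and medians. Against LacZ, edgeR called 7.85% of all genes tested for the libraries labelled K815Q, 5.34% for WT and 2.47% for K815R. Against WT, the shares were 1.07% for the libraries labelled K815Q and 2.20% for K815R. K815R against the libraries labelled K815Q gave 0.363%. Whether any list held more or fewer calls than these shares was not tested, so single calls do not set a list apart. Kat5 and Kat8, the MYST enzymes of the TIP60 and of the MSL and NSL complexes, gave 0 calls in 12 results by edgeR, with 1 unadjusted p under 0.05 and 0 calls by DESeq2. The JADE scaffolds Jade1, Jade2 and Jade3, which HBO1 uses in place of BRPF proteins, gave 0 calls in 18 results, with 4 unadjusted p under 0.05 and 0 calls by DESeq2. All 3 JADE genes had log2 fold changes below 0 against LacZ in each of the other groups. The medians of the JADE genes were -0.15 for WT, -0.14 for K815R and -0.21 for the libraries labelled K815Q, beside 0.01, 0.00 and 0.01 for all genes tested. Jade1 (ENSRNOG00000014066), chosen as an example after its values were seen, had a mean CPM of 47.4 ± 1.94 for LacZ, 43.7 ± 2.39 for WT, 42.9 ± 1.64 for K815R and 42.9 ± 3.54 for the libraries labelled K815Q (SD, n = 3).

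Of the 3 other ING genes tested, Ing1 and Ing3 were called once each in 18 results. In the comparisons that held these calls, edgeR called 2.47% and 7.85% of all genes tested. The medians of the 3 against LacZ were 0.12 for WT, 0.26 for K815R and 0.18 for the libraries labelled K815Q. Ing1 (ENSRNOG00000014520), a subunit of histone deacetylase complexes, rose from 41.4 ± 1.45 CPM in LacZ to 49.7 ± 2.12 in K815R (SD, n = 3; log2 fold change 0.26, edgeR adjusted p = 0.0287). That call was lost whichever of the 6 libraries was left out, at 0.23 to 0.29. Ing3 (ENSRNOG00000005496), the ING subunit of the TIP60/NuA4 complex, rose in the libraries labelled K815Q, from 9.65 ± 0.782 CPM for LacZ to 12.1 ± 0.601 (SD, n = 3; log2 fold change 0.33, edgeR adjusted p = 0.0382). WT and K815R, at 12.0 ± 1.26 and 11.7 ± 0.542 CPM (SD, n = 3), also lay wholly above LacZ but were not called, at 0.31 and 0.28 (edgeR adjusted p = 0.0636 and 0.146). Of all genes tested, 24.6% in WT and 18.7% in K815R did not overlap LacZ. The call in the libraries labelled K815Q held in 2 of the 6 fits without a library, with 0.28 to 0.40, and was not made by DESeq2 (adjusted p = 0.0664). Of 17 TIP60/NuA4 genes tested, among them Kat5, Ing3 and Meaf6, Ing3 was the only edgeR call in the 6 comparisons and DESeq2 called 0. The medians against LacZ were 0.02, -0.03 and 0.01 in WT, K815R and the libraries labelled K815Q.

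Of 11 MSL and NSL genes tested, Ogt (ENSRNOG00000003359), which adds the sugar GlcNAc to proteins, gave the only edgeR call. The medians of the 11 against LacZ were 0.05, -0.05 and -0.01 in the same order. Ogt was at 182 ± 4.33 CPM in WT and fell by 0.25 on the log2 scale to 153 ± 2.93 CPM in K815R (SD, n = 3; edgeR adjusted p = 0.0381). With any 1 of the 6 libraries left out that call was lost, with adjusted p from 0.0770 to 0.130 by edgeR. LacZ stood at 158 ± 7.74 CPM and the libraries labelled K815Q at 154 ± 17.7 CPM (SD, n = 3). The latter were below WT by nearly the same log2 fold change, -0.24, which was called by DESeq2 (adjusted p = 0.0349) and not by edgeR (adjusted p = 0.0582). In that comparison DESeq2 also called Hcfc1, a host cell factor that binds OGT, at -0.52 (adjusted p = 0.00376), which edgeR did not (adjusted p = 0.0638). Of 6 partners of KAT6A, Spi1 (ENSRNOG00000012172), the myeloid factor PU.1, was the only edgeR call, and the medians of the 6 were 0.07, 0.02 and 0.05. The CPM of Spi1 in the libraries labelled K815Q rose to 6.52 ± 0.858, from 4.95 ± 0.436 for LacZ (SD, n = 3; log2 fold change 0.39, edgeR adjusted p = 0.0465), and 1 of 6 fits without a library kept the call, which was not made by DESeq2 (adjusted p = 0.102) or in a fit of the 6 compared libraries (adjusted p = 0.0699 by edgeR). DESeq2 called Kmt2a, the MLL histone methyltransferase, instead. The libraries labelled K815Q had less of it than LacZ and WT, at log2 fold changes of -0.40 and -0.45 (DESeq2 adjusted p = 0.0333 and 0.0395; edgeR adjusted p = 0.159 and 0.229). The 5 macrophage markers summed to between 34.4 and 41.2 CPM in LacZ and between 40.2 and 45.6 CPM in those libraries. Not all of them rose: the mean of Adgre1 was 3.14 CPM in LacZ and 2.15 in those libraries. The means of Cd68, Csf1r, Cd14 and Ptprc were higher there than in LacZ. Of the 5, edgeR called 1 lower and 0 higher, beside 7.85% of all genes tested, and DESeq2 called 0. The part of these markers in the Spi1 level was not tested.

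Of 17 genes described elsewhere as targets of KAT6A, 9 passed the filter. Cdkn2a (ENSRNOG00000059837), which encodes the cell cycle inhibitors INK4A and ARF, was the only edgeR call, and it was higher than LacZ in every other group. Its CPM was 2.75 ± 0.143 for LacZ, 3.86 ± 0.228 for WT, 4.10 ± 0.234 for K815R and 4.08 ± 0.531 for the libraries labelled K815Q (SD, n = 3). The log2 fold changes were 0.48, 0.57 and 0.56, with edgeR adjusted p of 0.0423, 0.0241 and 0.0151. The 3 comparisons share the LacZ libraries, whose highest value was 2.91 CPM, below the lowest of the 9 others, 3.60 CPM. Of all genes tested, 24.6%, 18.7% and 28.4% did not overlap LacZ in the same order of groups. Of the 6 fits without a library, 0, 1 and 4 kept the calls of Cdkn2a, and DESeq2 did not call the first 2 (adjusted p = 0.154 and 0.0886). The call in WT was also lost without a filter and in a fit of only its 6 libraries (edgeR adjusted p = 0.0645 and 0.0602), so 5 of 8 other settings kept it. The median over the 9 targets tested against LacZ was 0.00 for WT, -0.06 for K815R and 0.00 for the libraries labelled K815Q.

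Of the 8 target genes below the filter, 5 (Hoxa5, Hoxa7, Hoxa9, Hoxa10 and Hoxc8) are listed at 0 counts in all 12 libraries, where a count of 3 would be 0.118 to 0.157 CPM. Tbx1, a T-box transcription factor of the outflow tract, was chosen for mention after its values were seen. It had 10, 17 and 7 counts in the K815R libraries. LacZ held 1, 1 and 0 counts, WT 2, 2 and 1, and the libraries labelled K815Q 1, 1 and 2. All 3 K815R libraries lay above the 9 others, and the share of all genes with such a pattern was not computed. In the fit without a filter, Tbx1 was called in K815R against LacZ (edgeR adjusted p = 8.57e-05), against WT (adjusted p = 0.0115 by edgeR) and against the libraries labelled K815Q (adjusted p = 0.0113 by edgeR). In that fit 2.67%, 2.46% and 1.36% of all genes were called. Against LacZ it was not called in WT or in the libraries labelled K815Q, with edgeR adjusted p of 0.664 and 0.675. Hoxb4 and Hoxb5, which had few counts as well, were named as the rest of the 8 and called in none of the 6 comparisons of that fit, with 1 unadjusted p under 0.05, for Hoxb5 in K815R against LacZ, and DESeq2 was not run without the filter.

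**Figure D4:**
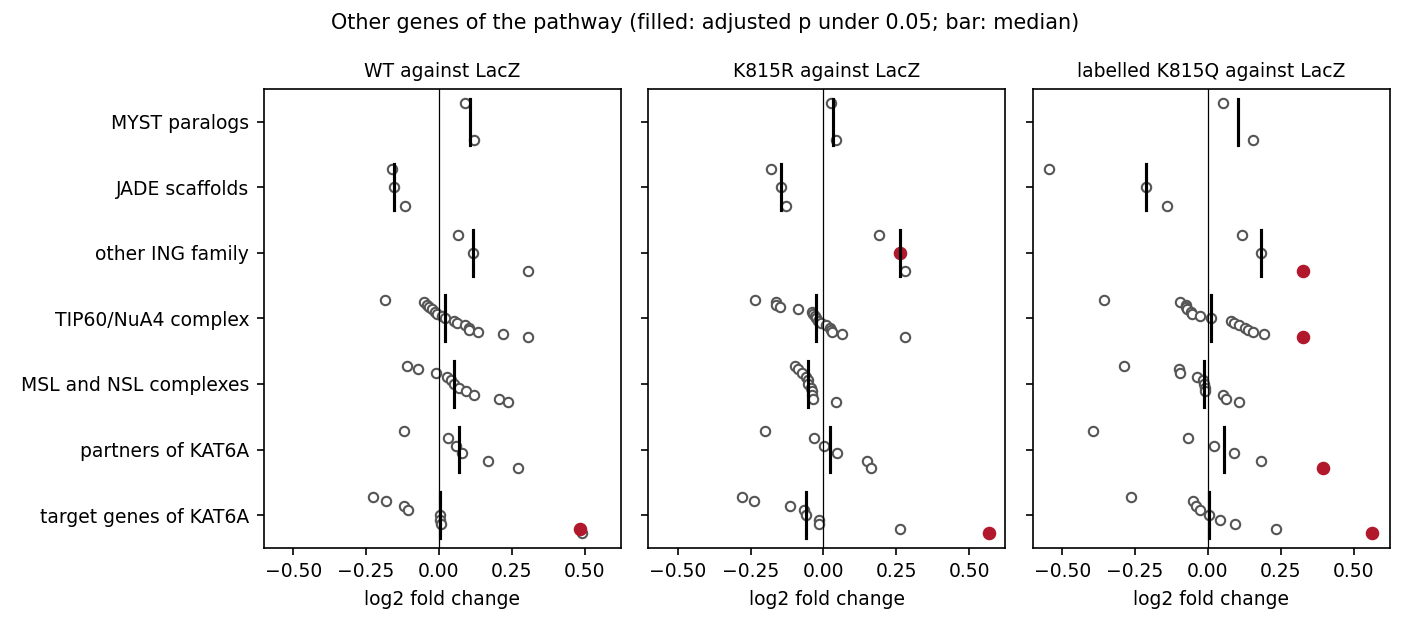
Log2 fold change against LacZ (horizontal axis) of each tested gene in 7 lists, in WT, K815R and the libraries labelled K815Q, with a bar at the list's median and filled points at an adjusted p under 0.05. The filled points are Ing1, Ing3 (drawn in both lists that hold it), Spi1 and, in all 3 panels, Cdkn2a. The JADE scaffolds lie below 0 in each panel, none of them called, and the panels share the LacZ libraries.

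The genes whose levels followed Kat6a most closely were ranked by Pearson's r of log2 CPM over the 12 libraries, among 10260 genes of at least 5 CPM. Hspa2 (ENSRNOG00000006472), a chaperone of the heat shock protein family, had the highest r, 0.96. Its CPM was 13.1 ± 0.452 for LacZ, 19.3 ± 2.39 for WT, 25.0 ± 0.795 for K815R and 13.1 ± 0.779 for the libraries labelled K815Q (SD, n = 3). Wrb, a factor that inserts proteins into the endoplasmic reticulum membrane, followed at 0.91, then AABR07073038.2 at 0.87, Dok4 at 0.86 and Ccp110 at 0.86. A high r does not mean a large difference: the mean of Wrb was 55.9 CPM in LacZ and 59.6 in K815R.

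At the other end, Penk, which encodes the precursor of enkephalin peptides, had the lowest r, -0.92. Its CPM was 56.5 ± 5.84 for LacZ, 41.4 ± 2.90 for WT, 39.9 ± 3.51 for K815R and 51.4 ± 5.59 for the libraries labelled K815Q (SD, n = 3). Cdk2ap1 and Hnrnpl had -0.88, and Srpx and Col1a1, a fibroblast marker above, had -0.87. After the group means were taken out, r was -0.84 for Penk and 0.51 for Hspa2. Most of the range of Kat6a lies between groups, so these values reflect how the groups fell as well as how libraries varied within them, and they carry no test.

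Prkaa2, which encodes an AMPK catalytic subunit, was named because the study's title is about AMPK, and it did not follow the order of Kat6a. Its CPM ranged from 54.8 to 72.7 for LacZ, 78.1 to 95.4 for K815R, 435 to 633 for WT and 1134 to 1232 for the libraries labelled K815Q.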

How the data were processed

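Poly(A) RNA of 12 libraries was sequenced. The authors deposited 1 table of raw read counts per gene. The submitters' processing notes name Trimmomatic 0.39, HISAT2 2.2.1, HTSeq 0.6.1, edgeR and the build Rnor_6.0; the libraries were stranded per the labels' protocols, but the strand setting of the counting is not given in the sources used here, so overlapping and antisense genes are uncertain. Its last 5 lines name no gene and stayed out of library sizes; of all reads, 25.6% to 26.9% aligned to more than 1 place and 11.7% to 12.9% lay in no annotated feature. Chi-square per degree of freedom between replicates was 4.54 to 8.74, so each library counted as its own. A count of 3 is 0.118 to 0.157 CPM.

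Counts were scaled by TMM and filtered by filterByExpr (minimum count 10, minimum total 15). The robust quasi-likelihood test of edgeR 4.0.16 (R 4.3.3) was applied to 1 model of 4 group means over 12 libraries, with Benjamini-Hochberg adjustment over all 14063 genes; a call is an adjusted p under 0.05. Log2 CPM used a prior count of 2. The procedure was tested on simulated data. Ratios were compared by exact permutation. The alternatives comprised DESeq2 1.42.0, scaling by RLE or the upper quartile, omission of the filter, at least 10 counts per library, a replicate block, a fit of the 6 compared libraries alone, the fit without the libraries labelled K815Q, and leaving out each library. The 9 genes and the lists were chosen with earlier results of these data known. Named genes were the 9 members, the 5 genes with the highest and the 5 with the lowest r with Kat6a, and Prkaa2. Genes of the pathway lists that edgeR called in any comparison were also named. That rule did not cover the marker and interferon lists. Outside it, Jade1, Tbx1, Hoxb4, Hoxb5, the 5 HOX genes at 0, Hcfc1 and Kmt2a were named after their values were seen. So were the named cell type markers and the remaining genes of lists of 3 or fewer. Same-numbered libraries deviated together, by the data and not the labels, in 1 of the 6 pairs of groups, K815R and the libraries labelled K815Q (r = 0.148 to 0.255); in each of the other 5, at least 1 of 3 pairs was below 0.1. Gene coordinates are not used here.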

Additional observations from a re-analysis of the deposited data

How the results depend on the processing

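The 4 calls of Kat6a held under every alternative run, and its 2 other results were called under none. With 1 library left out, the log2 fold change of Kat6a ran from 0.84 to 1.03 in WT, 1.08 to 1.26 in K815R and -0.11 to 0.03 in the libraries labelled K815Q against LacZ. It ran from 0.13 to 0.33 for K815R against WT, -1.09 to -0.90 for the libraries labelled K815Q against WT, and 1.13 to 1.28 for K815R against the latter. The value for the libraries labelled K815Q against LacZ turned to 0.0318 without LacZ replicate 3. The number of members called in that pair was 0 in every such fit. It was 0 to 1 for K815R against WT, where 1 was Kat6b without K815R replicate 2, and 1 in the other 4 comparisons. The test for any difference called 1 to 2 members, with 2 without K815R replicate 2 and 2 without a filter on low counts. For the libraries labelled K815Q against WT, 2 members were called without a filter, when just the 6 compared libraries were fitted and with the replicate block, the added call being Kat6b (adjusted p 0.0457 by edgeR with the block). The block changed no other call of a member. In K815R against the libraries labelled K815Q, where all 3 same-numbered pairs correlated above 0.1, the block gave 1.23 for Kat6a and changed no member's call. Over all groups, deviations of same-numbered libraries correlated at -0.26 to 0.34, and 5 of 12 libraries correlated best with their own number. Near 0, Meaf6 in WT and Kat7 in K815R against LacZ changed sign under upper-quartile scaling (0.00173 and 0.00989), as did Kat7 with the replicate block (0.00121). With 1 library left out, further values near 0 changed sign, and their range is given here. In WT against LacZ, it was -0.0577 to 0.0233 for Kat7, -0.0909 to 0.0125 for Brd1, -0.0529 to 0.0409 for Brpf3 and -0.0728 to 0.0820 for Meaf6. In K815R against LacZ, it was -0.140 to 0.0981 for Kat6b, -0.0411 to 0.0376 for Kat7, -0.0101 to 0.04997 for Ing5 and -0.0332 to 0.119 for Meaf6. In the libraries labelled K815Q against LacZ, it was -0.0251 to 0.0983 for Kat7, -0.0103 to 0.0869 for Brpf1 and -0.00918 to 0.0549 for Brd1. In K815R against WT, it was -0.00406 to 0.0484 for Kat7, -0.0784 to 0.0249 for Brd1 and -0.0423 to 0.0969 for Meaf6. In the libraries labelled K815Q against WT, it was -0.00876 to 0.115 for Kat7, -0.0553 to 0.0444 for Brpf1 and -0.0184 to 0.0394 for Ing4. In K815R against the libraries labelled K815Q, it was -0.0274 to 0.210 for Kat6b and -0.100 to 0.0232 for Kat7. Of 288 leave-one-out results of the 8 other genes, 1 was called, and of 360 under other settings, 3; all 4 were Kat6b. Counting error limits Meaf6, Kat6b and Ing5 most, with 238 to 524 counts per library.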
